A study of Mus musculus with 16 samples.

Results

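The 9 genes described here encode the strands, the membrane adhesion proteins and a scaffold of the tight junction, measured as mRNA by RNA sequencing in cultured mouse keratinocytes with or without integrin α3β1. They were found by their symbols (*Cldn1*, *Cldn3*, *Cldn4*, *Cldn6*, *Cldn7*, *Cldn12*, *Ocln*, *F11r* and *Tjp1*), and all 9 were among the 14474 genes of the count table. The null line (MKα3−) is an immortalized mouse keratinocyte line without the α3 integrin subunit, and the rescued line (MKα3+) is the same null line given back a human α3 subunit. Each line was grown on collagen in low-calcium medium and received either 0.02 mg/mL laminin-332 (LN332), the main ligand of α3β1 in skin, or the same volume of a buffered glycine and azide vehicle for 16 to 24 h, with 4 libraries in each of the 4 groups. Collagen, low calcium and immortalization were shared by every group. There was 1 null and 1 rescued line, so α3β1 and any other difference between these lines cannot be told apart. The study calls its in vitro data points experimental replicates, but the sources do not say that the numbered libraries were separate cultures, so the p-values measure the spread between these samples only, which may be technical.

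Tight junctions close the space between neighbouring epithelial cells. Claudins are membrane proteins that polymerize into the junction's strands and set how tightly, and for which ions, a cell sheet seals. Occludin and JAM-A sit beside them in the membrane, and ZO-1 ties all of these to actin from the inside. In epidermis the barrier lies in the granular layer, while undifferentiated keratinocytes in low calcium do not assemble continuous junctions. An mRNA level therefore tells what the cells transcribed and not whether junctions were formed.

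Libraries held between 21735708 and 29338370 counts, and the first principal component separated the MKα3− from the MKα3+ libraries. Levels are given as CPM, the counts scaled to a common library total, with TMM factors that correct for library composition. Mouse *Itga3* lay between 211 and 317 CPM over all 16 libraries, so the counts of the mouse gene did not tell the lines apart. The keratinocyte label was met by the basal markers, of which all 8 were measured. Their summed level ranged from 8737 to 14676 CPM in MKα3− and from 8777 to 13153 CPM in MKα3+ vehicle libraries. *Lamb3* (888 to 1175 against 550 to 703 CPM) and *Trp63* (100 to 168 against 51.8 to 87.0 CPM) were lower in MKα3+ libraries without overlap. So was *Krt15* (1.90 to 10.4 against 0.504 to 1.20 CPM), while the other basal markers overlapped. The suprabasal *Krt1*, *Lor* and *Flg* were not in the table. The 3 measured suprabasal markers summed to between 42.1 and 76.3 CPM in MKα3− against between 17.3 and 22.1 CPM in MKα3+ vehicle libraries. Most of this sum was *Sbsn* (32.6 to 63.2 against 10.5 to 14.7 CPM), while *Krt10* and *Ivl* overlapped between the lines. The 4 simple-epithelium keratins summed to between 1936 and 2461 CPM in MKα3− and between 4072 and 4478 CPM in MKα3+ vehicle libraries. Of these keratins *Krt18* alone overlapped between the lines. Of 5 leukocyte markers, 4 were measured, with sums from 23.4 to 50.5 CPM and from 36.1 to 94.5 CPM in the same groups. Among them *Adgre1* (0.106 to 4.88 against 7.30 to 34.9 CPM) and *Itgam* (0.319 to 3.73 against 5.02 to 25.5 CPM) were higher in MKα3+ libraries without overlap. *Cd68* and *Ptprc* overlapped. Fibroblast (5 of 8 measured), endothelial (5 of 5) and melanocyte (1 of 4) sums reached at most 40.7 CPM in a library. The 1 melanocyte marker was at 2.81 to 3.94 CPM in MKα3− and 0.827 to 1.71 CPM in MKα3+ vehicle libraries. The simple-epithelium and suprabasal sums and the melanocyte marker thus separated the lines with vehicle without overlap. So did *Lamb3*, *Trp63*, *Krt15*, *Adgre1* and *Itgam*, and the part of all of these in the results was not tested.

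*Cldn4* was the most abundant of the 9 mRNAs per kilobase of exon in every group. On the scale of CPM per kb, MKα3− vehicle cells held *Cldn4* at 660 ± 111 (SD, n = 4). The next levels in these cells were those of *F11r* at 103 ± 4.92 and *Cldn6* at 85.2 ± 21.0 CPM per kb, whose ranges overlapped. *Cldn1* at 30.1 ± 1.15 and *Tjp1* at 28.7 ± 2.06 CPM per kb formed another overlapping pair, above *Cldn12* at 17.7 ± 1.40 and *Ocln* at 10.9 ± 1.78. *Cldn3* at 4.80 ± 1.94 and *Cldn7* at 0.576 ± 0.237 CPM per kb were the lowest. In MKα3+ vehicle cells the order after *Cldn4* (554 ± 34.7 CPM per kb) became *Cldn6* (180 ± 17.0), *F11r* (88.9 ± 3.79) and *Cldn3* (71.5 ± 5.98), and neighbours in this part of the order did not overlap. *Tjp1* (44.9 ± 2.65), *Cldn1* (20.9 ± 2.26), *Cldn12* (17.3 ± 1.09), *Ocln* (11.6 ± 0.977) and *Cldn7* followed, with only *Cldn1* and *Cldn12* overlapping among neighbours.

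**Figure D1:**
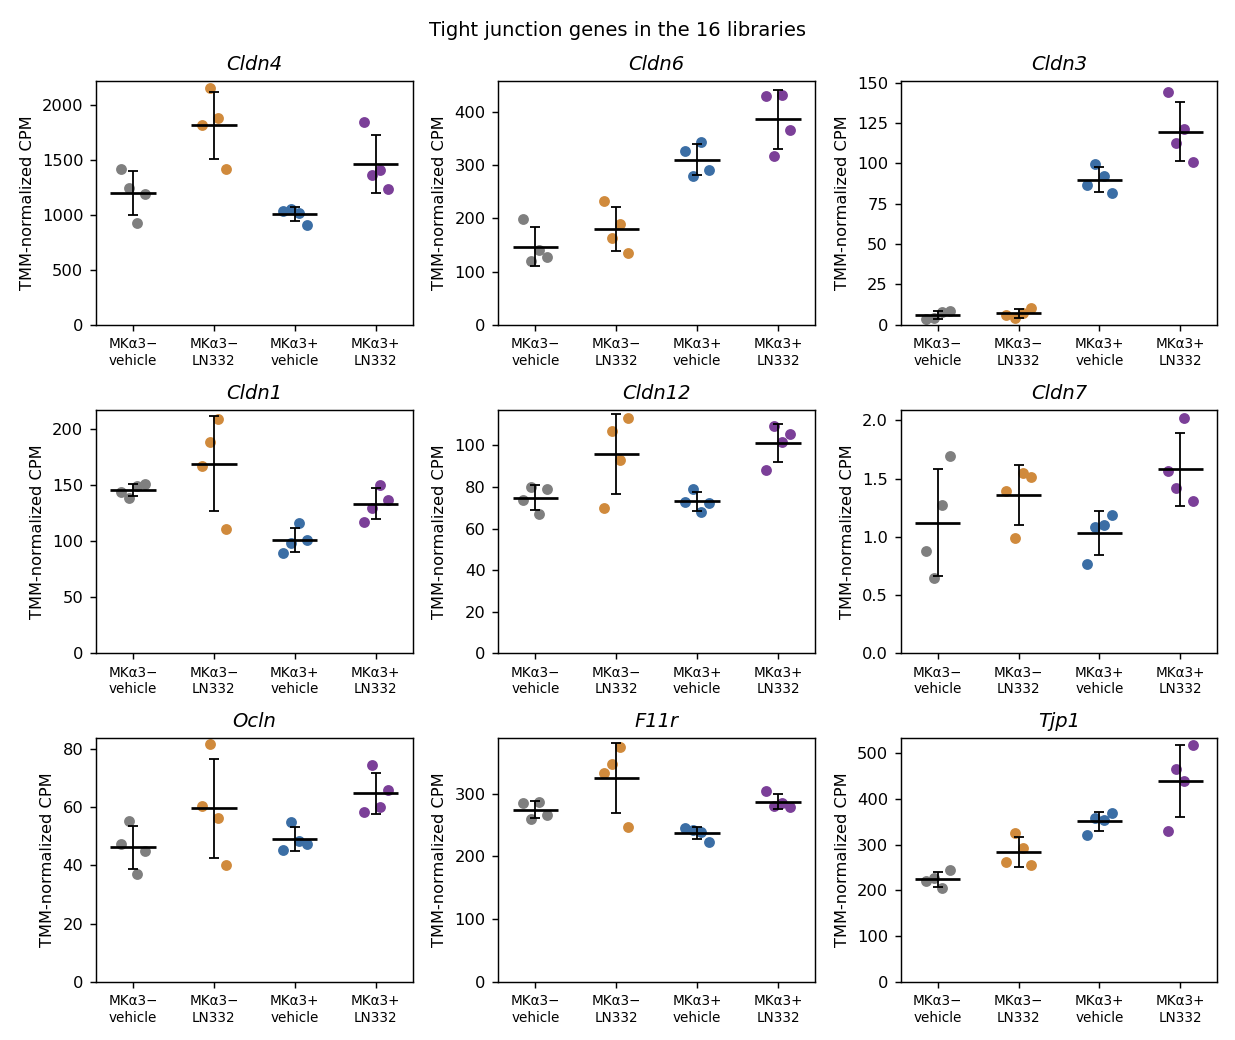
TMM-normalized CPM (linear axis from 0) of the 9 tight junction genes in each of the 16 libraries, by group, with the horizontal line at the mean and bars of ± 1 SD over 4 libraries. *Cldn3* was between 3.86 and 10.6 CPM in the 8 MKα3− libraries and between 82.0 and 144 CPM in the 8 MKα3+ libraries.

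The first question was which of these genes differed with α3β1 in the absence of added LN332. With vehicle, *Cldn3*, *Cldn6* and *Tjp1* were higher and *Cldn1* was lower in MKα3+ than in MKα3− cells, while *Cldn4*, *Cldn7*, *Cldn12*, *Ocln* and *F11r* did not pass the test. A gene was called when its Benjamini-Hochberg adjusted p from limma-voom, taken over all 14474 genes, was under 0.05 and its log2 fold change was over 0.5 in size. By this rule 4 of the 9 genes were called, against 18.5% of all genes. The 3 that rose compare with 10.9% of all genes called higher, and the 1 that fell with 7.56% called lower. The median log2 fold change of the 9 genes was −0.03 and that of all genes was 0.01, so the genes did not move as a block.

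*Cldn3*, which encodes a barrier-forming claudin of simple epithelia, changed most. It was measured at 3.86, 4.03, 7.83 and 8.46 CPM in replicates 1 to 4 of MKα3− vehicle cells and at 86.6, 99.4, 92.1 and 82.0 CPM in MKα3+ vehicle cells. Every MKα3+ library was well above every MKα3− library, and the MKα3− values themselves fell into a lower and a higher pair. The log2 fold change was 3.98 (SE 0.24), a 15.8-fold difference with an adjusted p of 2.35e-09 by limma-voom. At the depth of these libraries the low MKα3− values still rested on between 110 and 245 counts each.

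*Cldn6* encodes a claudin best known from embryonic epithelium. Its levels were 199, 119, 140 and 128 CPM in MKα3− and 327, 280, 342 and 291 CPM in MKα3+ vehicle libraries. The groups did not overlap, although 1 MKα3− library lay well above the other 3. The log2 fold change was 1.10 (SE 0.17), or 2.15-fold, with an adjusted p of 1.11e-04 by limma-voom.

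*Tjp1* encodes ZO-1, the scaffold that binds claudins, occludin and actin. It was at 220, 226, 205 and 244 CPM in MKα3− and at 321, 358, 355 and 369 CPM in MKα3+ vehicle libraries, with a clear gap between the groups. Its log2 fold change was 0.65 (SE 0.12), or 1.57-fold, with an adjusted p of 5.41e-04 by limma-voom. The simple-epithelium keratin sum given above was higher in the same MKα3+ libraries as *Cldn3*, *Cldn6* and *Tjp1*.

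*Cldn1*, the claudin without which newborn mice cannot hold water in the skin, went the other way. MKα3− vehicle libraries held 144, 139, 149 and 151 CPM, a narrow range, and MKα3+ vehicle libraries held 89.5, 98.3, 116 and 100 CPM. The groups did not overlap and the log2 difference was −0.53 (SE 0.15), so MKα3+ cells were 1.45-fold lower (adjusted p = 0.0120 by limma-voom). This value sat next to the minimum change of the rule. It was −0.48 (adjusted p = 0.0363) without MKα3+ vehicle replicate 1 and −0.48 with sample quality weights, both under that minimum. The suprabasal marker sum, of which *Sbsn* alone separated the lines, was lower in the same MKα3+ libraries.

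Of the other claudins, *Cldn4*, a sealing claudin that shares with claudin-3 the ability to bind a clostridial enterotoxin, was at 1420, 1248, 933 and 1193 CPM in MKα3− and at 1036, 1054, 1022 and 914 CPM in MKα3+ vehicle libraries. The groups overlapped through a single MKα3− library near 933 CPM, and the log2 fold change of −0.24 (95% interval −0.55 to 0.07) did not pass the test (adjusted p = 0.253 by limma-voom). *Cldn12*, whose protein lacks the tail by which other claudins bind ZO-1, lay between 67.0 and 79.8 CPM in MKα3− and between 68.1 and 79.2 CPM in MKα3+ vehicle libraries (log2 fold change −0.03, 95% interval −0.29 to 0.23). *Cldn7*, a claudin often found along the lateral membrane, was barely transcribed, with 19 to 49 counts per MKα3− vehicle library. Its wide 95% interval of −0.70 to 0.61 on the log2 scale allows a change of that size in either direction.

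*Ocln*, which encodes occludin, lay between 36.9 and 55.2 CPM in MKα3− and between 45.3 and 54.8 CPM in MKα3+ vehicle libraries, with a log2 fold change of 0.09 (95% interval −0.26 to 0.45). *F11r*, which encodes the adhesion receptor JAM-A, was at 284, 260, 286 and 266 CPM in MKα3− and at 245, 242, 239 and 222 CPM in MKα3+ vehicle libraries. The *F11r* groups did not overlap, but the difference was small and was not called (log2 fold change −0.21, SE 0.11, adjusted p = 0.146 by limma-voom). In all, 5 of the 9 genes had groups without overlap in this comparison, against 32.9% of all genes. For each of the 5 the two-sided exact permutation p was 0.0286, which is the smallest that 4 libraries against 4 allow.

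The same comparison was made in cells given LN332, between the other 8 libraries. Both comparisons used the same lines and 1 fit of all 16 libraries, so this is not an independent repeat. *Cldn3*, *Cldn6* and *Tjp1* were again higher in MKα3+ cells, and no member was called lower (with sample quality weights *Cldn4* was, at −0.52 with an adjusted p of 0.00475 by limma-voom). This is 3 of 9 genes called, against 20.6% of all genes (11.7% higher). *Cldn3* was at 6.13, 4.27, 7.32 and 10.6 CPM in MKα3− and at 144, 113, 121 and 101 CPM in MKα3+ cells with LN332. Again no library of either line came near the other line, and the log2 fold change was 4.18 (SE 0.23), or 18.1-fold (adjusted p = 1.18e-09 by limma-voom).

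*Cldn6* was at 232, 164, 190 and 134 CPM in MKα3− and at 429, 316, 431 and 366 CPM in MKα3+ cells with LN332. The groups were apart, by 1.12 on the log2 scale (SE 0.17) and with an adjusted p of 1.01e-04 by limma-voom. *Tjp1* was at 262, 326, 292 and 255 CPM against 331, 465, 440 and 518 CPM. The highest MKα3− and the lowest MKα3+ library nearly met. On the log2 scale the difference was 0.62 (SE 0.12), with an adjusted p of 8.41e-04 by limma-voom. These 3 were also the only members without overlap, against 26.5% of all genes.

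*Cldn1* did not pass in LN332-treated cells. Its MKα3− libraries were at 167, 189, 209 and 111 CPM and its MKα3+ libraries at 117, 129, 150 and 137 CPM, so that 1 MKα3− library fell below all MKα3+ libraries. The difference was −0.30 on the log2 scale (SE 0.15), with an adjusted p of 0.131 by limma-voom. Without that library, replicate 4 of the MKα3− cells with LN332, it was −0.50 with an adjusted p of 0.00168 and passed the rule. The same library had the lowest total count of the 16, and among its group of 4 it was also the lowest for *Cldn4*, *Cldn6*, *Ocln*, *Tjp1* and *F11r* and the highest for *Cldn3* and *Cldn12*.

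**Figure D2:**
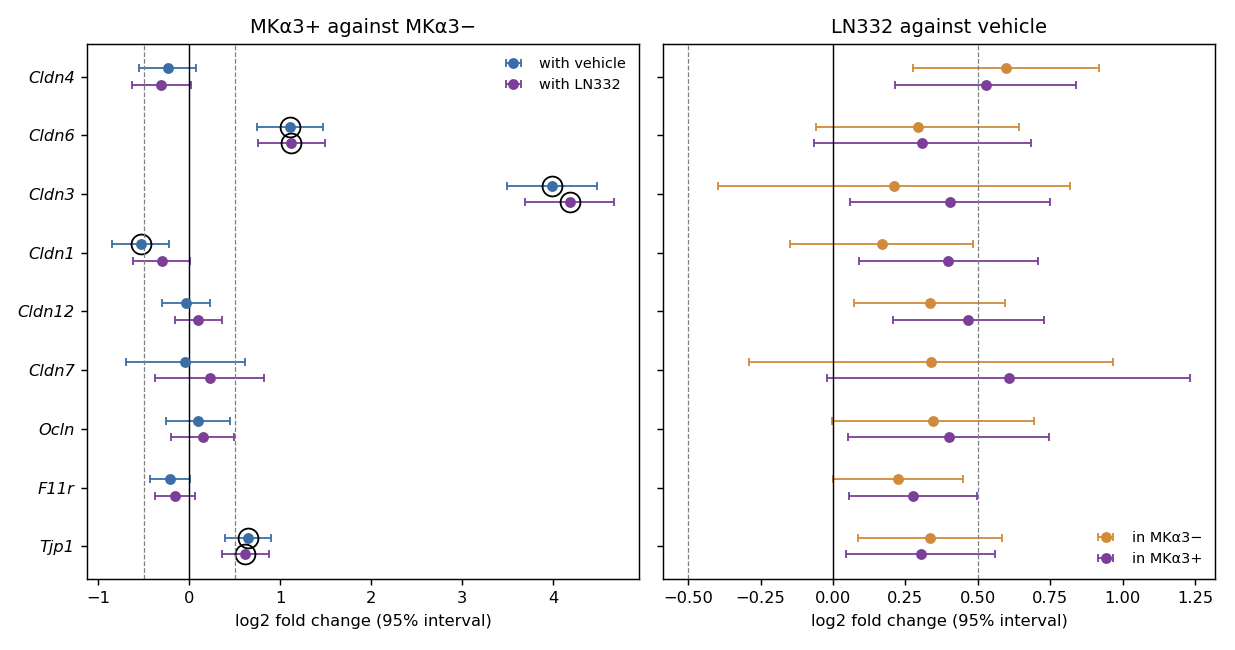
Log2 fold changes of the 9 genes with 95% intervals from limma-voom, for MKα3+ against MKα3− cells (left, with vehicle or LN332) and for LN332 against vehicle (right, in each line). Dashed lines mark ± 0.5, black rings mark called genes, and the axes differ in scale. *Cldn3* stood at 3.98 and 4.18, and all LN332 responses lay to the right of 0.

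The claudin mRNA pool had a different make-up in the lines. Over the 10 claudins with counts, summed as CPM per kb, the total was 811 ± 123 in MKα3− and 859 ± 46.8 in MKα3+ vehicle cells (SD, n = 4), with overlapping ranges. *Cldn4* made up 81.2% ± 2.40 of that sum in MKα3− and 64.5% ± 1.33 in MKα3+ cells. *Cldn6* took 10.5% ± 1.98 and 21.0% ± 1.64, and *Cldn3* took 0.623% ± 0.314 and 8.32% ± 0.504. *Cldn1* took 3.78% ± 0.670 and 2.43% ± 0.277. With vehicle the ranges of the lines were apart for each of these 4 shares. A share falls when others rise, and *Cldn4* itself was not called between the lines. With LN332 the summed level was 1189 ± 186 in MKα3− and 1198 ± 177 in MKα3+ cells, and *Cldn3* took 0.505% ± 0.279 and 7.94% ± 0.206 of it. The *Cldn1* shares then overlapped (2.45% to 3.49% in MKα3− and 1.67% to 2.70% in MKα3+ cells), while those of *Cldn3*, *Cldn4* and *Cldn6* stayed apart. Beyond the members, 5 of 23 further family genes were in the table: *Cldn5*, *Cldn15*, *Cldn18*, *Cldn23* and the claudin-like *Cldnd1*. Only *Cldn15* of these 5 was called with vehicle, against 18.5% of all genes. It was lower in MKα3+ cells, at between 0.561 and 1.59 CPM in MKα3− and between 0.120 and 0.432 CPM in MKα3+ libraries, or 0.0683% and 0.0161% of the pool on average. So low a level rests on few reads. With LN332 its groups overlapped and it was not called (log2 fold change −0.39, adjusted p = 0.622 by limma-voom).

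**Figure D3:**
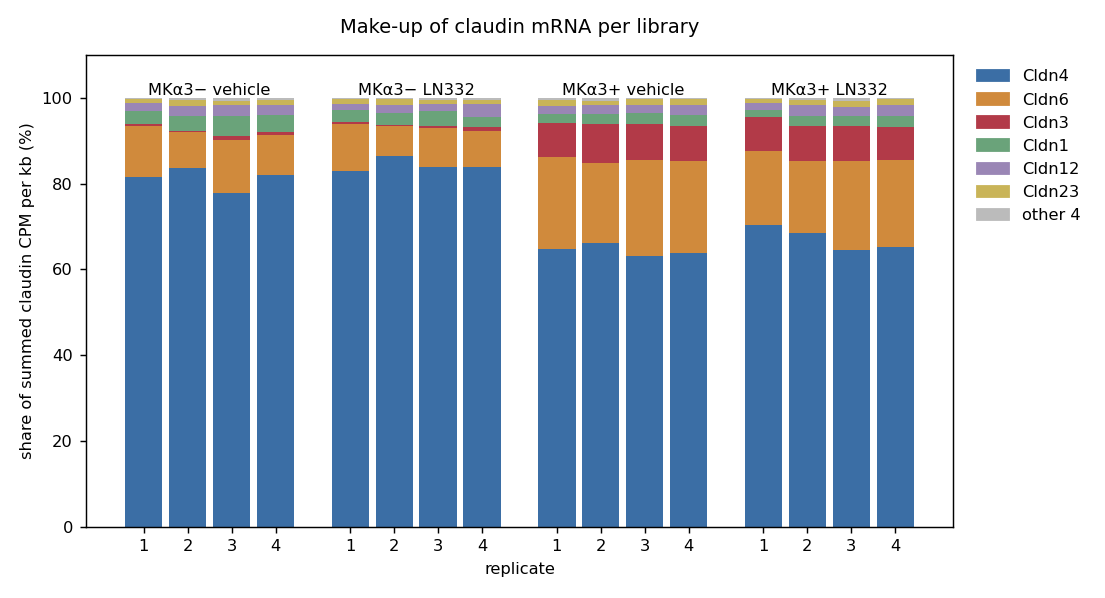
Share of each claudin in the summed claudin CPM per kb (%, stacked to 100) for each of the 16 libraries, by group and replicate number. *Cldn4* made up 81.2% on average in MKα3− and 64.5% in MKα3+ vehicle libraries, and the *Cldn3* band is broad in MKα3+ libraries only.

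*Cldn3* and *Cldn4* are neighbours. On mm10, *Cldn3* (Entrez 12739) lies at chr5:134986214-134987476 on the plus strand and *Cldn4* (Entrez 12740) at chr5:134945123-134946934 on the minus strand, so they are transcribed away from each other from starts 39.28 kb apart. Since *Cldn3* differed strongly between the lines and *Cldn4* did not pass the test, the 250 bases before each start are shown, from RefSeq on GRCm38.p6 and in the direction of transcription. For *Cldn3* this is chr5:134985964-134986213 and for *Cldn4* chr5:134946935-134947184. Capitals mark exact matches, on either strand, to the GC box GGGCGG, the E-box CACCTG bound by Snail and ZEB factors, and the AP-1 motif TGANTCA.
Cldn3: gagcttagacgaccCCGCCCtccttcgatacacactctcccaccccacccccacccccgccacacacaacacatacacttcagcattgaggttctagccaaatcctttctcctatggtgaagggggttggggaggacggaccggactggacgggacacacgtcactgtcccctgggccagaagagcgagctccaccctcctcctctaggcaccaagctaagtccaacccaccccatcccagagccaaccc
Cldn4: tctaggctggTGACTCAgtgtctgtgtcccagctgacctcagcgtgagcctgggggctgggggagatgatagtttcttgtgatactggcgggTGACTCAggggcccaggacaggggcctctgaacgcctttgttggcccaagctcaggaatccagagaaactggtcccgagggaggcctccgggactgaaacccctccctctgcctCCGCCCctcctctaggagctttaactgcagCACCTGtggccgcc
The *Cldn3* stretch held 1 GC box. The *Cldn4* stretch held 1 GC box, 1 E-box and 2 AP-1 motifs, and none of these matches overlapped. Over the 32851 mouse promoter windows of the same length, 32.7% held a GC box, 17.2% the E-box and 6.75% the AP-1 motif. All 9 genes were in the RefSeq table, with 13 windows in all. Each of the 9 had the GC box in at least 1 window, 5 had the E-box (*Cldn4*, *Cldn6*, *Cldn7*, *Ocln* and *F11r*) and 2 had AP-1 (*Cldn4* and *F11r*). Some members had more than 1 window, so these counts by gene are not on the scale of the shares by window. The content of G and C lay between 51.2% and 69.2%, apart from 1 *Cldn12* window at 42%. The median over all windows was 52.4%. The motifs ACCGGTT (Grainyhead-like, in 0.831% of windows), TATAAA (12.4%) and GGAATG (TEAD, 12.6%) were also searched on both strands, and of these only GGAATG was found, at *Cldn7*.

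Around *Cldn3*, 24 other measured genes had midpoints within 500 kb. With vehicle 0 of them were called higher and 3 lower, against 10.9% and 7.56% of all genes, namely *Syna*, *Mettl27* and *Stx1a*, and the median log2 fold change of the 24 was −0.03. With LN332, *Wbscr25* was called higher and *Syna* and *Mettl27* lower, against 20.6% of all genes in either direction, with a median of −0.07. These neighbours are named after their values were seen. The *Cldn3* exons shared 40 bases with *Wbscr25*, a gene on the opposite strand. *Wbscr25* had a log2 fold change of 0.61 with vehicle (adjusted p = 0.141 by limma-voom) and of 1.04 with LN332, where it was called (adjusted p = 0.0107 by limma-voom). Whether the counting used strand is not given in the sources used here, so reads in those bases cannot be assigned to either gene, but they make up 3.18% of the *Cldn3* exon length. No other member shared exon bases with another gene.

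**Figure D4:**
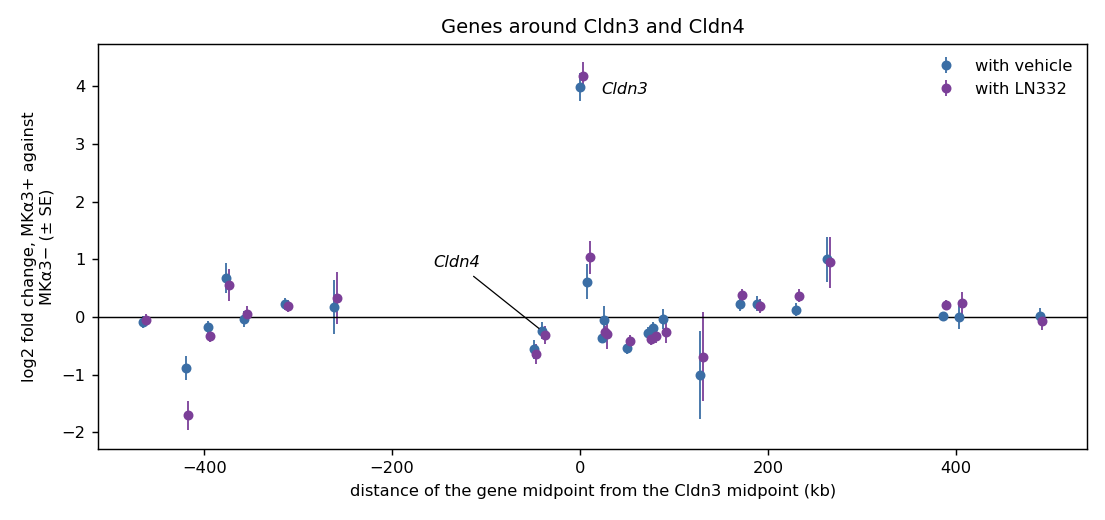
Log2 fold change of MKα3+ against MKα3− cells (± SE) for *Cldn3*, *Cldn4* and the other measured genes around them, against the distance of each gene's midpoint from that of *Cldn3* in kb, with vehicle and with LN332 (drawn slightly to the right). *Cldn3* stands alone at 3.98 and 4.18, *Cldn4* lies at −0.24 and −0.31, and *Wbscr25*, next to *Cldn3*, at 0.61 and 1.04.

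The next question was whether added LN332 changed these mRNAs. No member was called in either line by limma-voom, yet all 9 log2 fold changes were above 0 in both lines, between 0.28 and 0.61 in MKα3+ and between 0.17 and 0.60 in MKα3− cells (with sample quality weights *Cldn3* in MKα3− cells was instead at −0.18). The medians of the 9 genes were 0.40 and 0.33, and those of all genes were −0.01 in both lines, with 48.5% and 48.9% of all genes above 0. Among the 4741 genes with a mean level at or above that of *Ocln*, the medians were 0.02 and 0.03 and 57.6% and 56.5% lay above 0, while the 8 members in that range had medians of 0.40 and 0.31. With LN332 the simple-epithelium keratin sum lay above its vehicle range, at 4828 to 5459 CPM in MKα3+ and 2484 to 3277 CPM in MKα3− libraries. This held for *Krt7* and *Krt8* in both lines, while *Krt18* overlapped with vehicle in both. The mean of *Krt19* was lower with LN332, at 331 against 358 CPM in MKα3+ and 5.78 against 6.33 CPM in MKα3− cells. The part of these keratins here was not tested. In bulk RNA a change in the share of cells with a transcript and a change in its amount per cell cannot be told apart.

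The count of 0 of 9 genes called in MKα3+ cells compares with 0.187% of all genes. At an unadjusted p under 0.05, 7 of the 9 passed in MKα3+ cells, against 9.59% of all genes, and edgeR called 0 and DESeq2 1 of them. In MKα3− cells 0 of 9 were called, against 0.304% of all genes. There 3 of 9 passed unadjusted, against 14.0%, with 0 called by edgeR and 1 by DESeq2. In MKα3+ cells, 7 of the 9 genes had LN332 libraries that were all above the vehicle libraries (not *Cldn6* or *Tjp1*), against 4.78% of all genes. In MKα3− cells this held for *Tjp1* alone, against 2.29%. The shares in this paragraph are over genes of all levels and were not matched to the levels of the members. The 9 genes were also read from the same libraries, so they are not independent of each other.

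Leaving out the sparse *Cldn7*, *Cldn4* had the largest LN332 response of the members in both lines (with sample quality weights *Cldn12*, at 0.52, was above *Cldn4*, at 0.47, in MKα3+ cells). Its MKα3+ libraries were at 1036, 1054, 1022 and 914 CPM with vehicle and at 1845, 1365, 1416 and 1235 CPM with LN332. All 4 LN332 libraries were above all 4 vehicle libraries, and the log2 fold change was 0.53 (SE 0.15, 1.44-fold) with an adjusted p of 0.170 by limma-voom. The same-numbered libraries of this comparison varied together, and when the model held a term for the replicate number, limma-voom gave an adjusted p of 0.0265 and *Cldn4* was the 1 member called. DESeq2 gave an adjusted p of 0.0281. In MKα3− cells *Cldn4* with LN332 was at 1819, 2161, 1887 and 1419 CPM, where the lowest value lay just under the highest vehicle library. The log2 fold change was 0.60 (SE 0.15, 1.51-fold), with an adjusted p of 0.102 by limma-voom and 0.00635 by DESeq2.

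*Cldn12* was at 88.2, 109, 102 and 106 CPM with LN332 against 72.6, 79.2, 68.1 and 72.3 CPM with vehicle in MKα3+ cells. The groups did not overlap, with a difference of 0.47 on the log2 scale (SE 0.12) and an adjusted p of 0.147 by limma-voom. In MKα3− cells the LN332 values of 69.8, 107, 92.9 and 113 CPM were widely spread and overlapped with vehicle (0.33, SE 0.12). *Ocln* did not overlap in MKα3+ cells either, with 58.4, 74.3, 60.0 and 65.9 CPM with LN332 against 45.3, 54.8, 48.3 and 47.3 CPM with vehicle. Its log2 fold change was 0.40 (SE 0.16) there and 0.34 (SE 0.17) in MKα3− cells, where LN332 libraries ranged from 40.0 to 81.5 CPM.

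*F11r* was above all vehicle libraries with LN332 in MKα3+ cells as well, at 304, 280, 285 and 279 CPM. The difference was 0.28 on the log2 scale (SE 0.10) and did not pass, with an adjusted p of 0.352 by limma-voom. *Cldn1* and *Cldn3* had log2 fold changes of 0.40 (SE 0.15) and 0.40 (SE 0.16) in MKα3+ and of 0.17 (SE 0.15) and 0.21 (SE 0.29) in MKα3− cells. *Cldn6* differed by 0.31 (SE 0.18) and 0.29 (SE 0.17), and *Tjp1* by 0.30 (SE 0.12) and 0.33 (SE 0.12), in the same order of lines. *Cldn7* had the largest estimate in MKα3+ cells, 0.61, but with an SE of 0.30 and between 35 and 52 counts per LN332 library. None of these passed after adjustment.

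**Figure D5:**
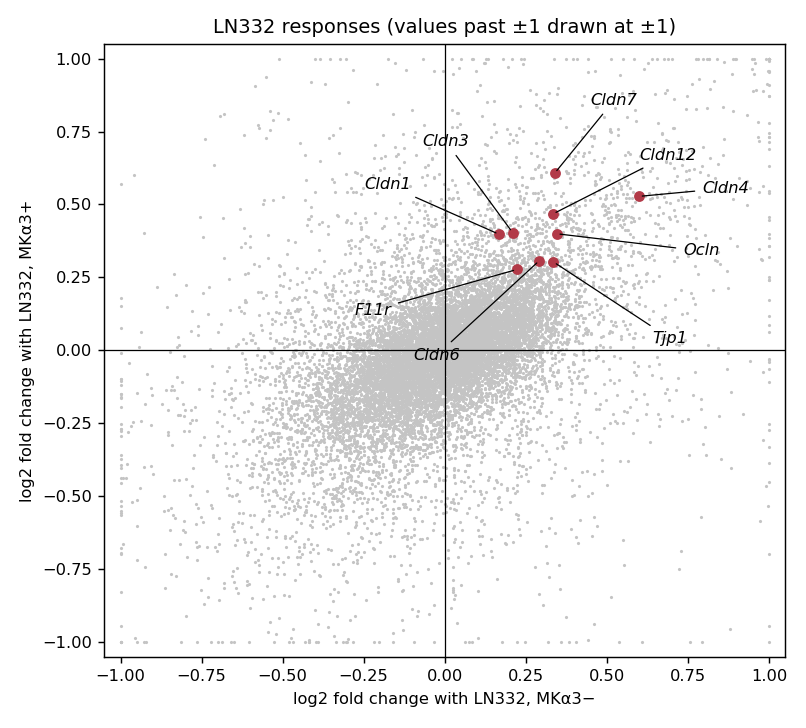
Log2 fold change with LN332 in MKα3− cells (horizontal) and in MKα3+ cells (vertical) for all 14474 genes (grey points, with values past ± 1 drawn at the edge) and the 9 tight junction genes (red, named). All 9 lie in the upper right of the plot, with *Cldn4* at 0.60 and 0.53.

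The difference between the lines in the LN332 response was tested as an interaction. For no gene of the 14474 did it pass with limma-voom (0%), and 164 genes had an unadjusted p under 0.05. edgeR and DESeq2 also called 0 genes. For *Cldn4* the difference was −0.07 with a 95% interval of −0.52 to 0.38, and for *Cldn3* it was 0.19 with an interval of −0.51 to 0.89. The data allow differences between lines anywhere within these intervals.

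Since no difference between lines passed, the LN332 response was also averaged over both lines, a contrast that was added after the data had been seen. *Cldn4* was then called, as 1 of 9 genes against 1.35% of all genes. It was 1.48-fold higher with LN332 (log2 fold change 0.56, SE 0.11), and limma-voom gave an adjusted p of 0.00726. *Cldn12* (0.40, adjusted p = 0.0163) and *Tjp1* (0.32, adjusted p = 0.0407) passed the p threshold of limma-voom but not the minimum change. The others had log2 fold changes between 0.25 and 0.47 and adjusted p values between 0.0649 and 0.324 by limma-voom. With scaling by library size alone *Cldn4* was at 0.49, just under the minimum. *Cldn4* was not the only claudin called in this average. *Cldn23* was also called higher, with log2 fold changes of 0.45 (SE 0.17) in MKα3+ and 0.58 (SE 0.17) in MKα3− cells. Of the other genes listed in this report, *Pard6b*, *Amotl2*, *Ovol1* and *Grhl3* were called higher too.

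Other genes of the tight junction are given for comparison, from a list of 41 of which 37 were measured. With vehicle, 7 were called higher and 4 lower in MKα3+ cells, against 10.9% and 7.56% of all genes, and the median log2 fold change of the 37 was 0.15. The largest differences were those of *Amot* and *Amotl2*, angiomotins that bind the polarity scaffold and YAP. *Amot* was between 1.25 and 3.44 CPM in MKα3− and between 37.1 and 65.2 CPM in MKα3+ libraries, a difference of 4.68 (SE 0.37) on the log2 scale. *Amotl2* ranged from 81.4 to 157 CPM and from 283 to 327 CPM (1.45, SE 0.15). *Marveld3*, a relative of occludin, was higher (1.21, SE 0.14), while *Jam2*, which encodes JAM-B (−1.30, SE 0.45), the trafficking GTPase gene *Rab13* (−1.19, SE 0.17) and the polarity gene *Pard6g* (−0.97, SE 0.15) were lower. With LN332, 9 were called higher and 4 lower, against 20.6% of all genes in either direction. Of the 37, only *Amotl2* was called for LN332 within a line, in MKα3− cells (0.74, SE 0.15, adjusted p = 0.0359 by limma-voom).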

How the data were processed

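RNA was sequenced from MKα3− and MKα3+ cells with vehicle or LN332, 4 libraries a group. The authors used Rsubread for alignment to mm10 and featureCounts for counting, and what they deposited are raw counts per gene, not normalized. The strand setting is not given in the sources used here. The counts of 14474 genes had been filtered before deposit, since every gene exceeded 0.5 CPM in at least 6 libraries. Read depth was 21735708 to 29338370 counts per library, and no pair of replicates agreed within sampling noise (smallest chi-square per degree of freedom 5.45).

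Here edgeR 4.0.16 gave the TMM factors, and limma 3.58.1 (R 4.3.3) the voom weights and moderated contrasts. The limma-voom workflow and its thresholds follow the methods of the study. The design, with all 16 libraries and 1 coefficient per group, was chosen here. A call required a Benjamini-Hochberg adjusted p under 0.05 over all genes and a log2 fold change over 0.5 in size. Single members were also tested by two-sided exact permutation over 70 splits (SciPy 1.17.1). Lengths were exon unions of the GENCODE mm10 annotation, found for 96.8% of genes. Likeness of 2 genes was the root mean square difference of their centred log2 CPM with a pseudocount of 0.5. edgeR's quasi-likelihood test, DESeq2 1.42.0, other scalings and filters, sample quality weights, a replicate block and omission of each library were alternatives. The scripts were tested on simulated data.

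All 9 members are named. From each other list the 6 called genes with the largest change and no overlap between the lines with vehicle are named. Genes called for LN332 within a line or averaged over both lines, and every measured claudin, are named as well. Members, lists and rules were chosen with earlier results of these data known. Same-numbered libraries correlated in their deviations from group means. The correlations lay between 0.158 and 0.350 for the lines with vehicle and between 0.244 and 0.659 for LN332 in MKα3+ cells. The main fit and the permutation test did not use these pairs, and the replicate block was an alternative only. A gene of the lists is not reported here.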

Additional observations from a re-analysis of the deposited data

How the results depend on the processing

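Under the alternatives 1389 of 1440 results of the 9 genes kept their direction and side of the threshold, 7 lost and 11 gained a call, and 33 changed sign, of which 23 were differences between the LN332 responses. Part of these results could not differ. The CPM filter of the study's methods removed 0 genes, and the settings with another minimum change reused the main estimates. Omitting a library could also hardly move a comparison without its group. The share that stayed the same is therefore no measure of robustness. With sample quality weights the log2 fold change was 0.0310 for *Cldn7* between lines with vehicle, −0.0621 for *Ocln* between lines with LN332 and −0.18 for *Cldn3* with LN332 in MKα3− cells. The differences of responses were −0.0300 for *Cldn6*, −0.20 for *Ocln* and −0.0318 for *F11r*. Leaving out 1 library moved the line difference with vehicle from −0.28 to 0.18 for *Cldn7*, −0.0853 to 4.87e-05 for *Cldn12* and −0.00699 to 0.19 for *Ocln*, and with LN332 from −0.0435 to 0.18 for *Cldn12* and −0.0241 to 0.31 for *Ocln*. The difference of responses moved from −0.0323 to 0.38 for *Cldn3*, −0.19 to 0.0450 for *Cldn4*, −0.14 to 0.15 for *Cldn6*, −0.00470 to 0.22 for *Cldn12*, −0.11 to 0.22 for *Ocln*, −0.12 to 0.10 for *Tjp1* and −0.0780 to 0.12 for *F11r*. The cause of these changes was not tested.

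A minimum log2 change of 1 left 2 members called between lines with vehicle, and 1362 genes with vehicle and 1345 with LN332, and no minimum gave 4115 and 4654 genes. Over single omissions between 3 and 4 members were called in each line comparison, with 2345 to 2754 and 2590 to 3338 genes. For LN332, 1 member was called in each line with DESeq2, the replicate block or quality weights (*Cldn4*, or *Cldn12* with quality weights in MKα3+ cells). In MKα3+ cells the genes called for LN332 numbered 27, and 4 with edgeR, 121 with DESeq2, 3 with library size alone, 454 with quality weights, 107 with only the groups compared and 5 with a minimum of 1. Without single libraries they numbered 0 to 47, the most without MKα3− LN332 replicate 1. In MKα3− cells they numbered 44, and 165 with DESeq2, 74 with library size alone (24 of them higher, against 35 of 44), 123 with quality weights, 1 with only the groups compared and 6 with a minimum of 1. Without single libraries they numbered 1 to 150, the most again without MKα3− LN332 replicate 1.

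Averaged over both lines, 0 members were called with library size alone or a minimum of 1, 2 with quality weights and 3 with no minimum. The genes called numbered 196, and 464 with quality weights, 13 with a minimum of 1 and 637 with no minimum, and 114 to 321 over single omissions. The replicate block gave 218 genes for LN332 in MKα3+ cells, 259 in MKα3− cells and 363 averaged over both lines. For LN332 in MKα3− cells and for the lines with LN332, not every same-numbered pair was correlated above 0.1 (lowest 0.0630 and −0.0566). In each, 3 of 4 pairs passed. With the block, limma-voom gave *Cldn4* an adjusted p of 0.0138 in MKα3− cells. Of the 16 libraries, 15 correlated best with their own number. The labels of the counts also share a numbered prefix across the groups, without saying what it stands for. Both are hints of pairing, and the sources state no paired design. The block changed no other call among members. The order of levels per kb kept all 72 ranks under library size alone and TPM. Within a library these scales differ only by a factor common to all genes, so the order could hardly change.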

Other observations

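Among 19 transcription factor genes known to act on claudin or occludin genes, 16 were measured, and with vehicle 2 were higher and 4 lower in MKα3+ cells, against 10.9% and 7.56% of all genes. With LN332, 1 was higher and 6 were lower, against 20.6% of all genes in either direction, where *Twist1* was no longer called and *Trp63* and *Ehf* were called lower. *Tfap2c*, which encodes an AP-2 factor, was at 2.18 to 4.75 CPM in MKα3− and 0.108 to 0.327 CPM in MKα3+ libraries, the largest difference of the list. The repressor gene *Snai2* (30.1 to 48.9 against 17.8 to 21.5 CPM) and the epithelial factor genes *Elf3* (34.7 to 65.8 against 21.8 to 31.0 CPM) and *Grhl3* (24.5 to 34.3 against 12.3 to 21.2 CPM) were also lower in MKα3+ cells. The repressor gene *Zeb2* (1.31 to 1.80 against 1.96 to 5.13 CPM) and *Twist1* (4.21 to 6.17 against 9.32 to 11.3 CPM) were higher. No member of this list was called for LN332 within a line by limma-voom.

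Of 15 genes for claudin partners, proteases and regulators, 14 were measured and 2 were higher with vehicle, near the 10.9% of all genes called higher. These were the tetraspanin gene *Cd81* (5.93 to 7.33 CPM in MKα3− and 97.1 to 115 CPM in MKα3+ libraries) and the kinase gene *Rock2* (83.5 to 95.8 and 115 to 155 CPM). *Cd81* was also the gene whose pattern over the 16 libraries was closest to that of *Cldn3*, with a root mean square difference of 0.319 on the centred log2 scale, followed by *Prrg1* (0.332) and *Slain1* (0.364). For *Cldn1* the closest were *Polk* (0.154), *Sowahb* (0.162) and *Cd9* (0.169). These are likenesses over libraries that share lines and treatments. Within the 9 genes *Cldn1* and *F11r* were most alike (0.182).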
